A study of Mus musculus with 16 samples.

Results

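Of the 10665 peaks in the deposited V5 list, which mark where the V5-tagged EWSR1::ATF1 fusion (EA1) was called bound on the mouse genome, 2421 lay away from every gene start and carried neither RNAPOL2 nor H3K27ac. They were defined by 2 conditions on the peak lists. A peak had to miss the window within 3 kb of every transcription start site (TSS) in GENCODE vM21, and it had to share not even 1 bp with a peak of the RNAPOL2 list or of the H3K27ac list. The unmarked distal peaks made up 22.7% of all EA1 peaks (95% Wilson interval 21.9 to 23.5%) and 38.2% of the 6335 distal peaks (37.0 to 39.4%). The other distal peaks comprised 2740 with H3K27ac only, 1142 with both marks and 32 with RNAPOL2 only, and 4330 EA1 peaks lay at promoters. The 2740 peaks with H3K27ac only and the 1142 peaks with both marks served for comparison. The study counts more EA1 binding sites than the deposited list holds, and every share and rank given here is over the list.

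All samples were tumours of mice on a mixed 129/SvJ and C57Bl/6 background, in which a V5-tagged human EWSR1::ATF1 cDNA at Rosa26 is silent until Cre removes a stop cassette flanked by loxP sites. Recombination followed an injection of TATCre protein into the hindlimb, so the cell that gave rise to each tumour is not fixed by a tissue-specific promoter. ChIP-seq (sequencing of DNA that co-precipitates with an antibody) was done on 4 labelled samples per antibody (V5, RNAPOL2, H3K27ac), besides 4 inputs, and every sample carried the same genotype, with no tumour lacking the fusion. Only 1 combined peak list was deposited per antibody, with 10665 peaks for V5, 20375 for RNAPOL2 and 27552 for H3K27ac. Peaks and not tumours were therefore the units, no spread between animals could be given, the lists hold no read depth per sample, and a mark that is missing from a list may be weak rather than absent. Neighbouring peaks are not independent, so intervals and p-values cover counting error only. H3K27ac lay at a promoter of 12 of 27 neural crest and melanocyte genes and of 8 of 35 skeletal muscle genes, against 58.6% of all 21938 coding genes. Both lists fell below all coding genes and no other tissue was sampled, so these values do not verify the labelled tissue.

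ATF1 belongs to the CREB/ATF family of basic leucine zipper proteins, which bind DNA as dimers and recognise the palindrome TGACGTCA in promoters that respond to cyclic AMP. In clear cell sarcoma the fusion joins the DNA-binding zipper of ATF1 to a stretch of EWSR1 that recruits transcriptional machinery. H3K27ac marks active promoters and enhancers, and RNA polymerase II that is found away from genes usually sits at active enhancers. A transcription factor can also be cross-linked at places that carry no active mark.

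The DNA of a few unmarked distal peaks is given here because the comparisons turn on it. Capitals mark the canonical motif TGACGTCA, a variant of the form TGANNTCA, the AP1 motif TGAGTCA (read on the other strand as TGACTCA), or the TGA and TCA units of a string. Each is the member with the highest V5 score that held the element in its central 500 bp, read from GRCm38 on the forward strand, or the member with the longest string. For strings the peak in Wdr7, which scored higher, is described further on without its sequence. TGACATCA appears below as TGATGTCA, its reverse complement. The last is the middle of the highest member in which none of these elements was found.
Canonical motif, chr1:158198337-158198404, nearest gene Brinp2: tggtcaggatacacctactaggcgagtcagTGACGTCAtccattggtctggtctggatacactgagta
TGACATCA, chr3:128520613-128520680, nearest gene Fam241a: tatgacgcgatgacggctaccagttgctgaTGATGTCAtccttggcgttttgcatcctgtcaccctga
Another variant, chr3:128520503-128520570, in the same peak: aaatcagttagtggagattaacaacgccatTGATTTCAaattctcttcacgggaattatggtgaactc
AP1 motif, chr4:128383495-128383561, in Csmd2: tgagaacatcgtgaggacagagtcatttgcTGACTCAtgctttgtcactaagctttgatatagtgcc
String, chr7:124073698-124073795, in an intron of Hs3st4: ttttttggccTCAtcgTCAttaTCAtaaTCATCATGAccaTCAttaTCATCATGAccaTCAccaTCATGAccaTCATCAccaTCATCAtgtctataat
Longest string, chr2:105248041-105248163, in an intron of Them7: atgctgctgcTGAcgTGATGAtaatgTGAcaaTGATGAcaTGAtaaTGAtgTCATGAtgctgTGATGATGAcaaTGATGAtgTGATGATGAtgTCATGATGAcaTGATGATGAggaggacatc
None of these, chr5:5849106-5849225, nearest gene Steap1: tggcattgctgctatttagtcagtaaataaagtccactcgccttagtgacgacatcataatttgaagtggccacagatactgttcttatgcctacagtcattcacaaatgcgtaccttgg

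The unmarked distal peaks were of middling strength. Their V5 score, a whole number assigned by the authors whose scale is not stated, had a median of 217 (quartiles 132 and 351, range 25 to 2483). The median was 289 for distal peaks with H3K27ac only, 330 for those with both marks, 185 at promoters and 230 over all EA1 peaks. None of the 100 strongest EA1 peaks was an unmarked distal peak, and 31 of the 1000 strongest were, against 348 with H3K27ac only and 220 with both marks. When all EA1 peaks were divided into 5 equal groups by score, the unmarked share of the distal peaks was 42.6% in the lowest group, then 45.2%, 48.2% and 40.5%, and 16.1% in the highest. The unmarked peaks were also narrower, with a median width of 630 bp against 770 bp and 880 bp in the marked classes, and 68.6% of them were at most 700 bp wide, against 39.3% and 29.4%. These values belong to the same lists that chose the members and are descriptive.

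**Figure D1:**
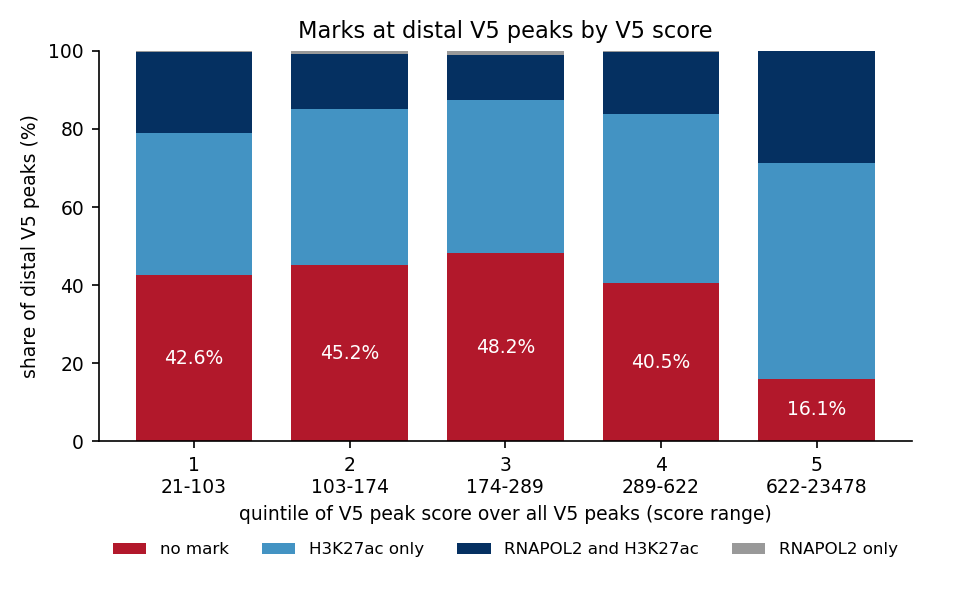
The marks at distal EA1 peaks by V5 score, with quintiles of score over all EA1 peaks on the horizontal axis and the share of distal peaks in each class on the vertical axis (%). The unmarked share stays between 40.5 and 48.2% over the lower 4 quintiles and is 16.1% in the highest.

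The gaps between unmarked peaks and the marks varied widely. The rule itself removed every peak that shared a base with a mark, and the gaps were not compared with those of other places in the genome. The nearest H3K27ac peak was a median of 35.9 kb away (quartiles 10.6 and 108 kb, maximum 3019 kb) and the nearest RNAPOL2 peak 108 kb (40.1 and 238 kb). An H3K27ac peak lay at least 50 kb away for 1028 members (42.5%), and within 1 kb for 92 (3.8%). At the edge of the rule, 33 members had an H3K27ac peak within 100 bp, the closest of them abutting it with a gap of 0 bp, while 95 of the peaks with H3K27ac only were overlapped by at most 100 bp. The median V5 score was 202 for the 66 members within 500 bp of H3K27ac and 241 for those 95 peaks. At the other edge, 94 members lay 3 to 4 kb from a TSS (median score 207), and 96 unmarked EA1 peaks lay 2 to 3 kb from one (median score 210). TGACATCA varied little with this distance and was held by 21.7% of members within 1 kb of H3K27ac (interval 14.5 to 31.2%) and by 21.8% of those at least 50 kb away (19.4 to 24.4%).

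**Figure D2:**
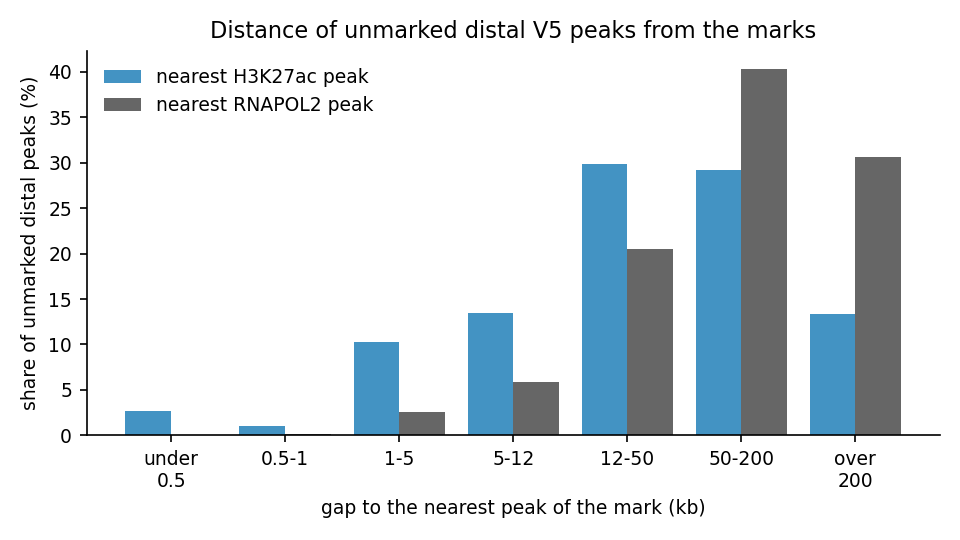
The gap from each of the 2421 unmarked distal peaks to the nearest peak of each mark, in classes of distance (kb, horizontal) with the share of members in percent (vertical). The classes from 12 to 200 kb hold most members for H3K27ac, and for RNAPOL2 the class from 50 to 200 kb is the fullest with 40.3%.

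A variant of the ATF/CREB motif, TGACATCA, was more frequent in the unmarked peaks than in either marked class. It differs from the canonical palindrome in the centre and was held in the central 500 bp by 510 unmarked peaks (21.1%, interval 19.5 to 22.7%), by 413 peaks with H3K27ac only (15.1%, 13.8 to 16.5%) and by 117 peaks with both marks (10.2%, 8.62 to 12.1%). The odds ratio was 1.5 against H3K27ac only (1.30 to 1.74, adjusted exact p = 5.30e-08) and 2.34 against both marks (1.89 to 2.90, adjusted exact p = 5.98e-16; Fisher's exact test, two-sided, Benjamini-Hochberg adjustment over 24 tests of 12 features, as for all features below, while values within strata are Mantel-Haenszel chi-square tests). The difference held under every alternative run, with odds ratios down to 1.25 and 1.60 when whole peaks were searched. The canonical TGACGTCA showed no such difference. It was found in 104 unmarked peaks (4.30%), 132 with H3K27ac only (4.82%) and 58 with both marks (5.08%), with odds ratios of 0.887 (0.682 to 1.15, adjusted exact p = 0.421) and 0.839 (0.604 to 1.17, adjusted exact p = 0.345). In whole peaks, where the wider marked peaks offer more sequence, it was less frequent in the unmarked class (odds ratios 0.753 and 0.697, adjusted exact p = 0.0332 and 0.0319).

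Both motifs were many times more frequent in the unmarked peaks than across the genome. All 5294579 gap-free windows of 500 bp that tile the chromosomes were searched on both strands, as a description and without a test. TGACATCA was found in 2.54% and TGACGTCA in 0.268% of these windows. Of the 4401664 windows that were distal and held no EA1 peak, 2.48% had TGACATCA, so the unmarked peaks exceeded them 8.48-fold, and 0.241% had TGACGTCA, a 17.8-fold excess. Restricted to windows under 50% repeat-masked whose GC content lay between the quartiles of the members (40.6 and 46.8%), the shares were 3.09% and 0.286%, and the excess 6.82-fold and 15-fold.

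**Figure D3:**
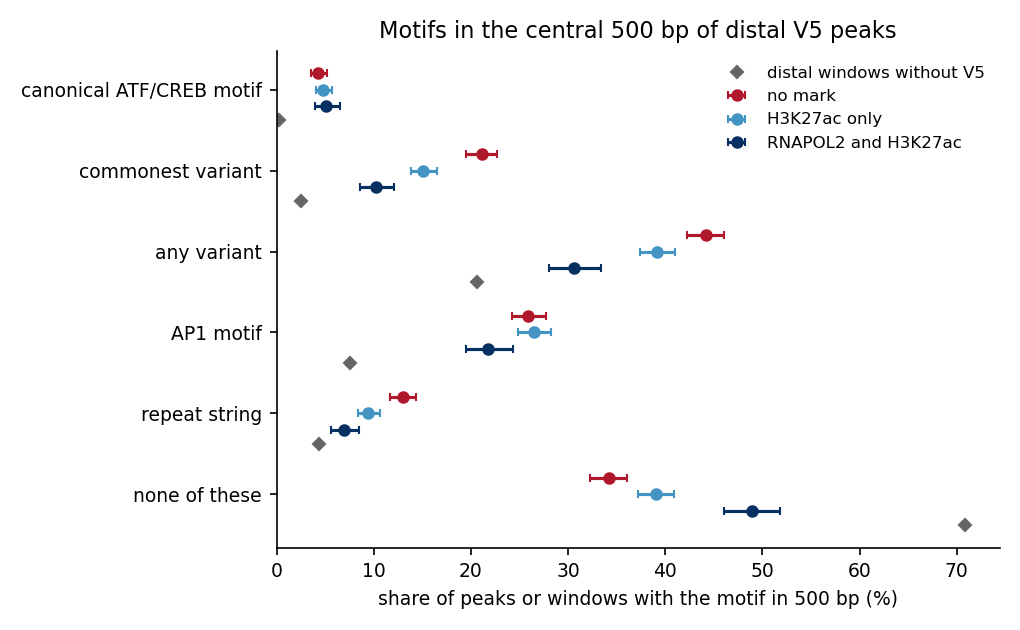
The share of peaks (%, horizontal, with 95% Wilson intervals) that hold each motif in the central 500 bp, for the 3 distal classes, with distal 500-bp windows of the genome that lack EA1 as diamonds. The commonest variant, TGACATCA, is at 21.1%, 15.1% and 10.2% in the unmarked, H3K27ac-only and doubly marked peaks and at 2.48% in the windows.

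Counting every TGANNTCA other than the canonical form, 1069 unmarked peaks (44.2%) held a variant, against 39.2% with H3K27ac only (odds ratio 1.23, 1.10 to 1.37, adjusted exact p = 5.01e-04) and 30.6% with both marks (1.79, 1.54 to 2.08, adjusted exact p = 2.19e-14). Both calls were lost in whole peaks, where the odds ratios were 1.01 and 1.16. The genome windows held a variant in 20.8% of cases. Among the variants, TGACATCA was followed by TGAAGTCA with 7.52% of the unmarked peaks, TGACCTCA with 7.15% and TGAAATCA with 5.2%. These 3 forms stood at 6.64%, 9.01% and 3.14% in the peaks with H3K27ac only, so the order of the classes was not shared by all variants, and the forms were not tested one by one. In promoter peaks TGACGTCA (11.2%) was more frequent than TGACATCA (7.14%), although any variant was still found in more of them (18.7%) than TGACGTCA.

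The AP1 motif TGAGTCA, bound by FOS and JUN family dimers, did not set the unmarked peaks apart. It was held by 628 of them (25.9%, against 7.67% of the genome windows), by 26.5% of the peaks with H3K27ac only (odds ratio 0.972, 0.858 to 1.10, adjusted exact p = 0.686) and by 21.8% of those with both marks (1.26, 1.06 to 1.48, adjusted exact p = 0.00918). The direction depended on the window. In whole peaks the motif was less frequent in the unmarked class, at 29.7% against 34.7% and 34.1%, with odds ratios of 0.795 and 0.819, and the call against both marks was also lost within quintiles of GC content (1.18, adjusted chi-square p = 0.108).

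Strings of TGA or TCA units, scanned with the rule in the methods of the study, were more frequent in the unmarked peaks. A string is here a run of over 4 units, none more than 5 bp from the next, and a TGANNTCA supplies 2 such units, so the elements can overlap. Strings lay in the central 500 bp of 314 unmarked peaks (13.0%, 11.7 to 14.4%), of 9.45% of the peaks with H3K27ac only (odds ratio 1.43, 1.20 to 1.70, adjusted exact p = 1.09e-04), of 6.92% of those with both marks (2.01, 1.55 to 2.59, adjusted exact p = 6.34e-08) and of 4.33% of the genome windows. In whole peaks the difference from H3K27ac only was lost (14.7% against 13.6%, odds ratio 1.09, adjusted exact p = 0.304) and that from both marks was 1.44 (adjusted exact p = 0.00214). With another definition, which admits runs of 4 units but gaps of at most 2 bp, 9.54% of the unmarked peaks held a string, against 6.42% and 5.08% (odds ratios 1.54 and 1.97). Long strings went with very different scores in the 3 classes. Over whole peaks, which are wider in the marked classes, strings of at least 8 units occurred in 56 unmarked peaks (2.31%) with a median V5 score of 277, in 41 peaks with H3K27ac only (1.5%) with a median of 1392, and in 10 peaks with both marks (0.876%) with a median of 2178. The longest run in the unmarked class was the 24-unit string near Them7 printed above, in a peak with a score of 1016. The next were a 19-unit string 333 kb from Zfp804a (score 402), a 19-unit string in an exon of Creb5 (score 218) and strings of 17 units 4.58 kb from Jsrp1 (score 185) and in Hs3st4 (score 1426, printed above).

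None of the elements was found in the central 500 bp of 828 unmarked peaks (34.2%), fewer than the 39.1% with H3K27ac only (odds ratio 0.811, 0.724 to 0.909, adjusted exact p = 5.01e-04) and the 48.9% with both marks (0.542, 0.470 to 0.626, adjusted exact p = 1.64e-16). In whole peaks the first of these differences disappeared (28.7% against 28.1%, odds ratio 1.03), and it also missed the threshold among peaks of at most 700 bp (0.871, adjusted exact p = 0.112). Of the genome windows, 70.6% held none. A variant alone was the commonest content of an unmarked peak (680, 28.1%), followed by TGAGTCA alone (308, 12.7%) and by a variant with TGAGTCA (205, 8.47%), while 51 peaks (2.11%) had TGACGTCA alone.

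Within the unmarked peaks, TGACATCA and strings were more frequent in the highest than in the lowest quintile of the members' own scores. TGACATCA stood at 16.1% (13.1 to 19.6%), 22.1%, 16.7%, 23.3% and 27.1% (23.3 to 31.2%) from the lowest quintile to the highest, so the middle quintile was close to the lowest. Between the end quintiles, strings went from 9.90% (7.55 to 12.9%) to 18.4% (15.2 to 22.1%), and peaks with none from 40.8% (36.5 to 45.3%) to 27.5% (23.7 to 31.6%). TGAGTCA stood at 25.2% (21.5 to 29.2%) and 28.5% (24.7 to 32.7%) and TGACGTCA at 4.33% (2.85 to 6.53%) and 6.2% (4.38 to 8.71%), both with overlapping intervals. The copies also lay near the middle of the peak. The nearest TGACATCA was a median of 58 bp from it in the unmarked class, 81 bp with H3K27ac only and 90 bp with both marks, and 43.3%, 37.3% and 30.8% of the peaks that held it had a copy within 50 bp. For TGAGTCA these distances were 80.5, 91.5 and 92.5 bp. The middle of a peak is not its summit, which the lists do not give, and a wider peak can have its summit further from the middle. Further, 71 unmarked peaks held TGACATCA at least 2 times, against 38 and 10 in the marked classes.

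**Figure D4:**
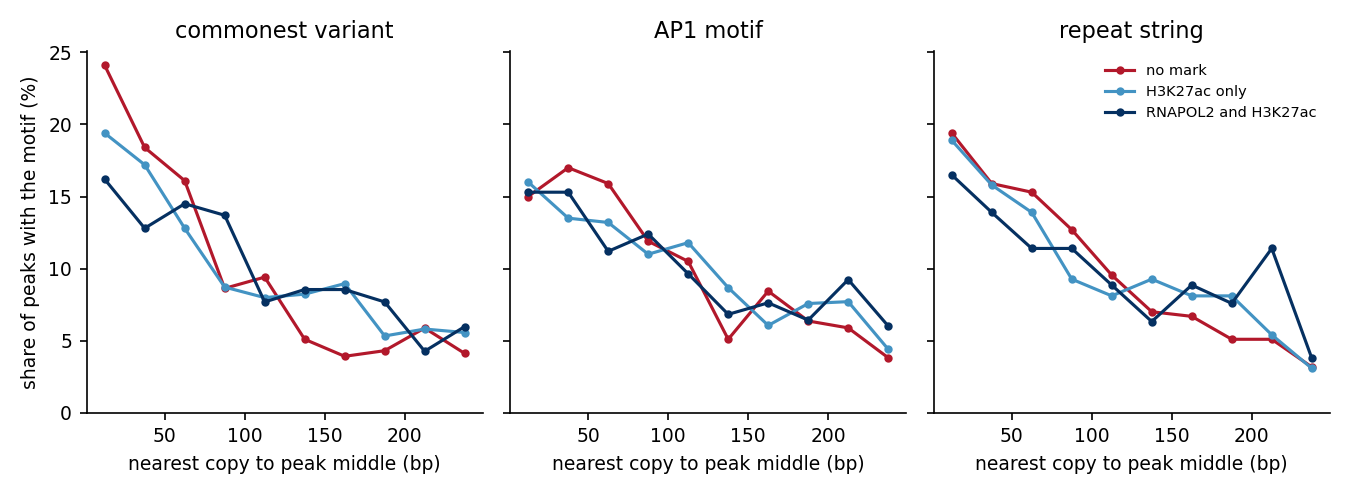
The distance from the peak middle to the nearest copy of an element (bp, in bins of 25 bp, horizontal) and the share of the peaks holding it (%, vertical), for TGACATCA (left), TGAGTCA (centre) and strings (right). In the first bin TGACATCA reaches 24.1% in unmarked peaks and 16.2% in peaks with both marks.

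The unmarked peaks had a lower GC content than the 2 marked classes compared and the promoter peaks, and it was not set against the genome. The GC content of the central 500 bp averaged 43.8% (SD 4.62, n = 2421), against 46.0% with H3K27ac only, 50.4% with both marks and 59.4% at promoters. Only 16.4% of the unmarked peaks exceeded the median of all EA1 peaks (48.2%), against 31.1% (odds ratio 0.433, 0.379 to 0.496, adjusted exact p = 6.43e-35) and 58.4% (0.139, 0.119 to 0.163, adjusted exact p = 1.44e-138). Over all 6-mers, counted with their reverse complements, 284 of 2080 (13.7%) were more frequent and 366 (17.6%) less frequent in the unmarked peaks than in those with H3K27ac only. The 366 that were less frequent were GC-rich, with an average of 4.34 G or C letters of 6, and 133 of them contained CG (36.3%, against 29% of all 2080), such as CCCGCC with 5.29% against 9.34% (odds ratio 0.542). The 284 that were more frequent averaged 1.55 G or C letters, and 73 contained TGA or TCA (25.7%, against 12.3% of all 2080).

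Far fewer 6-mers passed at equal GC content. When peaks were compared within deciles of it, an alternative chosen after the values were seen, 35 6-mers were more frequent (all of them among the 284) and 26 less frequent (11 of them among the 366). Of the 35, 22 contained TGA or TCA (62.9%). Among 6-mers found in at least 5% of the peaks of either class, ATGATG led with 49.9% of unmarked peaks against 36.2% (odds ratio 1.75, adjusted exact p = 7.35e-20, and 1.57 within GC deciles, adjusted chi-square p = 1.32e-11). This 6-mer occurs in a TGA repeat, and also where an A precedes TGATGTCA, the reverse complement of TGACATCA, and its copies were not sorted. It was followed in the unstratified comparison by TCATCA (48.9% against 37.8%, odds ratio 1.58 and 1.45 within deciles), then ATCATC (35.8% against 26.1%, 1.57 and 1.44), then ATGACA (52.0% against 40.8%, 1.57 and 1.46) and then ATGATA (23.7% against 16.7%, 1.55 and 1.28). By the same limit the 5 6-mers with the lowest odds ratios, all GC-rich and CCCGCC among them, missed the threshold within deciles, where the 26 included AAAAAA (0.720, adjusted chi-square p = 3.28e-05). TGACATCA itself changed little within quintiles of GC content (odds ratios 1.51 and 2.24), while those for strings fell from 1.43 to 1.27 (adjusted chi-square p = 0.0116) and from 2.01 to 1.41 (adjusted chi-square p = 0.0225).

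A panel of 11 motifs of other factors was searched on both strands in the same window, with 22 tests adjusted together, of which 9 passed. The composite element TGATGNAA, bound by dimers of C/EBP and ATF proteins, was held by 18.3% of the unmarked peaks against 13.8% (odds ratio 1.41, adjusted exact p = 4.37e-05) and 11.3% (1.76, adjusted exact p = 5.81e-07), and by 9.16% of the genome windows. TTACNTAA, the site of NFIL3 and the PAR zipper proteins, was held by 6.69% against 4.60% (1.49, adjusted exact p = 0.00393) and 3.24% (2.14, adjusted exact p = 6.69e-05), close to the 6.24% of the genome windows. The SOX motif ACAATGG was held by 7.97% against 6.24% (1.30, adjusted exact p = 0.0403) and 6.22% (1.31, adjusted exact p = 0.127), with 8.49% in the genome windows. CAGCTG, an E-box of muscle and neural bHLH factors, was less frequent at 25% against 31.0% (0.741, adjusted exact p = 1.13e-05) and 34.9% (0.623, adjusted exact p = 3.45e-08), and above the 16.8% of the genome windows. The CTCF core was found in 1 unmarked peak of 2421, against 10 of 2740 (0.113, adjusted exact p = 0.0365) and 10 of 1142 (0.0468, adjusted exact p = 3.19e-04), and in 0.241% of the genome windows. Within quintiles of GC content only 2 of the 22 tests passed, TGATGNAA against H3K27ac only (1.27, adjusted chi-square p = 0.021) and CTCF against both marks (0.0696, adjusted chi-square p = 0.0109), and in whole peaks TGATGNAA and TTACNTAA lost their calls.

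The remaining panel motifs did not pass in the central window. TCANGTGA, the M-box of MITF, stood at 6.73% against 6.57% and 6.04% (genome windows 8.03%, odds ratios 1.03, 0.824 to 1.28, and 1.12, 0.839 to 1.5). The RUNX motif TGTGGTTT stood at 8.55% against 7.23% and 6.48% (genome windows 4.32%, adjusted exact p = 0.127 and 0.0728). The TEAD motif GGAATGT, the ETS motif CCGGAAGT, GGAAGGAA and the C/EBP motif TTGCNNAA stood at 9.87%, 0.372%, 5.12% and 25.3% of the unmarked peaks, and at 6.8%, 0.307%, 5.91% and 22.0% of the genome windows. In whole peaks GGAATGT was less frequent in the unmarked class (odds ratios 0.724 and 0.785), as were GGAAGGAA (0.636 and 0.611) and TTGCNNAA (0.853 and 0.723), and CCGGAAGT was against both marks (0.36) and, among peaks of at most 700 bp, against each class (0.176 and 0.15). A match is a run of letters and not a shown binding site.

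The unmarked peaks lay further from coding genes than the marked distal peaks, and fewer of them had another EA1 peak nearby. The nearest protein-coding TSS was a median of 60.1 kb away (quartiles 21.1 and 146 kb), against 37.3 kb with H3K27ac only and 18.4 kb with both marks. More than 50 kb separated 54.8% of the unmarked peaks from such a TSS, against 40.6% (odds ratio 1.78, 1.59 to 1.98, adjusted exact p = 5.93e-24) and 24.3% (3.77, 3.22 to 4.41, adjusted exact p = 9.87e-67). By position 52.5% were intergenic, 41.6% intronic and 5.95% exonic. A gene of any type was overlapped by 47.5%, against 53.5% (0.788, 0.706 to 0.879, adjusted exact p = 3.64e-05) and 66.8% (0.450, 0.389 to 0.521, adjusted exact p = 8.68e-27), although the second difference was absent when only the stronger 50% of the mark peaks counted (0.985). Another EA1 peak lay within 12 kb of 30.8% of the unmarked peaks, against 51.8% (0.414, 0.369 to 0.464, adjusted exact p = 3.09e-52) and 66.5% (0.224, 0.193 to 0.260, adjusted exact p = 1.96e-89). Of the promoter peaks, 32.7% had another EA1 peak within 12 kb, close to the unmarked share. Another unmarked distal peak lay within that distance of 15.7% of the members, a distal peak with H3K27ac only of 12.4%, a promoter peak of 5.49% and a distal peak with both marks of 1.28%, and a member with neighbours of several classes counts in each. The groups with the most members, joined over gaps of up to 12 kb, held 4 each, on chromosome 16 at chr16:87573101-87583510 and on chromosome 17 at chr17:69821751-69841880.

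**Figure D5:**
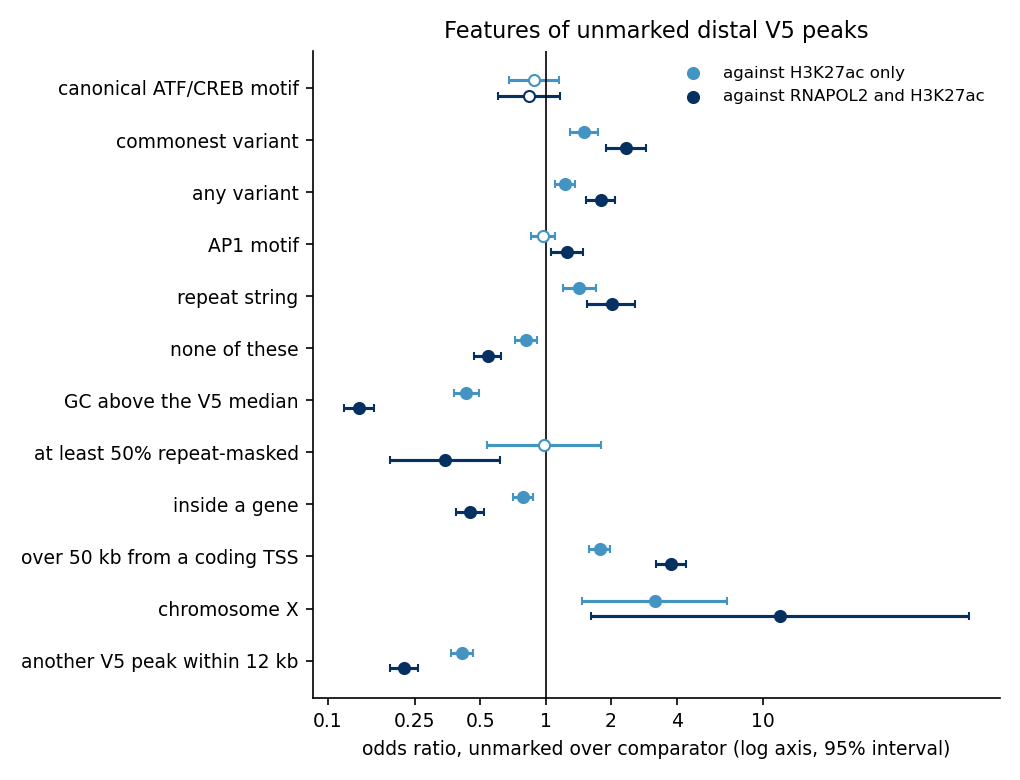
Odds ratios (log axis, 95% intervals) of 12 features in the unmarked distal peaks against distal peaks with H3K27ac only and with both marks, measured in the central 500 bp for the sequence features. Filled circles passed at an adjusted p under 0.05, open circles did not, and TGACATCA (commonest variant) is at 1.5 and 2.34.

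Central windows made up mainly of repeats were rare under these peaks, although most windows held some repeat-masked sequence. On average 10.8% of the bases were masked in the unmarked class, and 16.4% of its windows held no masked base. The averages were 11.3% with H3K27ac only and 12.7% with both marks. At least 50% of the central window was repeat-masked in 20 members (0.826%), against 0.839% with H3K27ac only (odds ratio 0.984, 0.539 to 1.8, adjusted exact p = 1) and 2.36% with both marks (0.344, 0.192 to 0.616, adjusted exact p = 5.55e-04), while 27.5% of the genome windows were. How reads from repeats were treated before peak calling is not given in the sources used here. Chromosome X held few EA1 peaks of any kind (65, 0.609% of the list, against 1.56% of the H3K27ac peaks). Of its 36 distal EA1 peaks 25 were unmarked (69.4%), while on the autosomes the share ran from 34.1 to 45.5%. The odds ratio for lying on X was 3.17 against H3K27ac only (1.47 to 6.8, adjusted exact p = 0.00352) and 11.9 against both marks (1.61 to 88.0, adjusted exact p = 0.00137), the latter resting on 1 doubly marked X peak. Both calls were lost among the stronger 50% of the EA1 peaks (1.64 and 6.04, adjusted exact p = 0.419 and 0.078). The sex of the animals was not used here.

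Although they lacked the marks, most unmarked peaks had a nearest coding gene with a mark at a promoter. Their nearest coding genes numbered 1507, and H3K27ac lay at a promoter of the nearest gene for 77.4% of the members (75.7 to 79.0%), RNAPOL2 for 67.6%, EA1 for 35.8%, and neither mark for 21.8%. Over all coding genes, 58.6% had H3K27ac at a promoter, 53.5% RNAPOL2 and 40.1% neither. These last shares count each gene once, while those of the members count a gene again for every member nearest to it. With H3K27ac only and with both marks, H3K27ac lay at the nearest gene's promoter for 86.8% and 92.6%. Clusters of acetylation, formed by at least 3 H3K27ac peaks with gaps of up to 12 kb, enclosed 54 unmarked peaks (2.23%), against 42.0% and 70.5% of the marked classes. These values use the mark lists that chose the members and were not tested.

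The 10 strongest unmarked peaks lay between genes (4), in introns (4) or over exons (2). Scores tied at the top with 2483 (rank 318 among all EA1 peaks) at chr3:128520001-128521430, an intergenic peak 624 kb from Fam241a and 230 kb from the nearest H3K27ac peak, and at chr5:5848721-5849610, an intergenic peak 99.4 kb from Steap1 and 98.9 kb from H3K27ac. The first held 3 variants, TGACATCA among them, over its whole width of 1430 bp, and the second held none of the elements. The next, with a score of 2077, lay in an exon of Csmd2 at chr4:128383061-128384230, 225 kb from either mark, with 2 variants and 1 AP1 motif.

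Repeated motifs recurred among the members that followed. A peak at chr17:64920041-64920920 (score 1932, 84.0 kb from the coding gene 4930583I09Rik and 17.0 kb from H3K27ac) held 6 copies of TGACATCA and a string of 5 units that lay outside its central 500 bp. A peak in an intron of Slc2a13, a myo-inositol transporter, at chr15:91567221-91568180 held 9 copies with a score of 1737, although it lay only 5.01 kb from the TSS and 3.07 kb from H3K27ac. A peak in an exon of Wdr7 on chromosome 18 (score 1879) held 5 strings of up to 10 units and no TGANNTCA. Robo1, the axon guidance receptor for SLIT ligands, had a peak with 1 TGACATCA in an intron at chr16:72997911-72999160 (score 1719, 7.26 kb from the TSS and 27.7 kb from H3K27ac). Sorcs3, a neuronal sorting receptor, had one with an AP1 motif at chr19:48626681-48628130 (score 1610, 417 kb from H3K27ac). The last of the 10 highest lay 127 kb from Dlgap1, a postsynaptic scaffold gene, with a score of 1563, and in an intron of Nxn, 31.5 kb from the TSS of Mrm3, with 1513. None of the 10 held TGACGTCA over its whole width. The highest member that did, with a score of 1511, was the intergenic peak near Brinp2 printed above.

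Of the unmarked peaks, 973 lay inside 689 coding genes, of which 176 held at least 2 and 13 at least 5. Kcnma1, which encodes the large-conductance calcium-activated potassium channel, spans 725 kb and held 7 unmarked among 15 distal EA1 peaks, with scores of 25 to 841. Pard3b, a cell polarity gene of 1003 kb, also held 7, among 9 distal EA1 peaks (scores 94 to 579). Then came Adamtsl1 (914 kb, 6 of 12, scores 117 to 1000), Dlc1, a RhoGAP gene (385 kb, 6 of 6, scores 142 to 238), and Dlg2, a synaptic scaffold gene (1973 kb, 6 of 6, scores 76 to 608). Rora held 6 as well, and Creb5, a CREB/ATF family member, held 5 of 14. H3K27ac and RNAPOL2 lay at a promoter of each of these 7 genes. Long genes offer more room, and the counts were not corrected for length.

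By function, the lists of genes nearest to distal EA1 peaks differed in how many of those peaks were unmarked, against 38.2% over all distal peaks. Counts are small, peaks of 1 gene are neighbours, and no test was made. Among axon guidance and neuronal adhesion genes 51 of 73 distal peaks (69.9%) were unmarked, spread over 20 genes, the highest being those in Csmd2 and Robo1. H3K27ac was found at a promoter of 27 of the 73 annotated genes of this list (37.0%). Among neural crest and melanocyte genes 19 of 30 (63.3%) were unmarked, led by a peak 710 kb from Sox9 (score 921) and one 262 kb from Msx2 (score 709), and neither held an element. Skeletal muscle genes had 4 of 5, with a score of 552 in an intron of Ptprq, 112 kb from the TSS of Myf6, a myogenic regulator, and of 265 in Neb, the nebulin gene.

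Genes of the cAMP pathway (cyclases, phosphodiesterases, protein kinase A subunits and other genes that make, degrade or relay cAMP) stood at the other end with 18 unmarked of 90 distal peaks. The highest lay 10.9 kb from the phosphodiesterase gene Pde8b (score 754, with 1 TGACGTCA) and 81.5 kb from Pde3a (score 415, with 3 variants). The CREB/ATF family itself had 10 of 22 (45.5%), in which Creb5 took the highest scores (636 and 455). The AP1 family had 3 of 8 (37.5%), with highest scores of 769 near Fos and 230 near Maf. RUNX genes had 9 of 18, one of them in Runx2 only 0.02 kb from an H3K27ac peak. Receptor tyrosine kinases had 13 of 36 (36.1%), led by Kdr (338) and Ror1 (313). Clock and PAR zipper genes had 10 of 27 (37.0%), led by Rorb (565, with a string of 7 units) and Rora (551). Olfactory and vomeronasal receptor genes, 1464 in number and silent in most tissues, were nearest to 9 distal EA1 peaks, of which 3 (33.3%) were unmarked.

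Some genes singled out by the study had unmarked peaks in reach and others had none. Mitf, the master regulator of melanocytes, had 3 unmarked among its 4 assigned distal peaks, the nearest 11.9 kb from a TSS with a score of 208. Fos had 1 of 4, at 23.4 kb (score 769), only 1.06 kb from an H3K27ac peak. Runx1 had 5 of 11, the nearest at 36.9 kb (score 103), and Runx2 had 4 of 7, although the member closest to its TSS, at 31.6 kb (score 94), was assigned to Supt3. Nfil3, a transcriptional repressor of the zipper class, had 2 of 11, the nearer at 91.0 kb (score 402). Fam43a had 0 of 9, and its nearest member was 922 kb away. No distal EA1 peak of any class was assigned to Crem, Junb, Nono, Tceal8, Fosl1, Trp53, Sox10 or Tfap2a, whose nearest members were 314 kb (Tfap2a) to 1797 kb (Tceal8) away.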

How the data were processed

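The authors aligned ChIP-seq reads of V5, RNAPOL2 and H3K27ac samples to mm10 with BWA (version 0.7.10-r789 in the submitters' processing notes), removed duplicates, called peaks with MACS2 (2.2.6) against input, with its broad setting for H3K27ac, and discarded ENCODE denylisted regions. The 3 deposited lists give a start, an end and a score per peak, with no read counts. The scale of the deposited score is not given in the sources used here, nor is how samples were combined into a peak list (the methods describe merging for the signal tracks). The methods count more samples for V5 and RNAPOL2 than the labels do.

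From these lists, peaks were classed by overlap (at least 1 bp) and by GENCODE vM21 TSSs (3 kb). Sequence came from GRCm38 in the 500 bp around each peak's middle, on both strands. Shares were compared by Fisher's exact test, two-sided, at an adjusted p under 0.05, and stratified odds ratios by Mantel-Haenszel. Benjamini-Hochberg adjustment ran separately over 24 tests of 12 features, 22 panel tests and 2080 6-mers. Functions were tested on simulated data. Tests ran in scipy 1.17.1 and statsmodels 0.14.6 under Python 3.11.15, tables in pandas 2.3.3 with numpy 2.4.6, and plots in matplotlib 3.10.9.

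The members, the gene lists and the tests were chosen with earlier results of these data known. Named were the 10 members with the highest scores, the 5 with the longest strings, the genes holding most members, the 2 highest members of each gene list, the genes the study singles out, and 5 6-mers in each direction, each held by at least 5% of either class. Some genes that meet these rules are not reported here. Rora and Creb5 as host genes, the lesser variants and AAAAAA were named after their values were seen. Alternatives changed the TSS window, the overlap, the peaks admitted, the sequence window and the strata.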

Additional observations from a re-analysis of the deposited data

How the results depend on the processing

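No paired analysis was possible because each list pools its samples, and leaving out a sample was not possible for the same reason. Of the alternatives, those that changed the definition moved the unmarked share of distal peaks from 38.2% to 36.9% (TSS window of 1 kb), 39.5% (5 kb), 36.7% (marks within 1 kb also counted), 69.0% or 4372 peaks (stronger 50% of the marks) and 32.5% or 1137 peaks (stronger 50% of the EA1 peaks), so the absence of a mark depends on how weak a mark peak is accepted. TGACATCA kept its direction and call against both classes under every alternative run, as did GC content, distance from a coding TSS and neighbouring EA1 peaks.

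Searching whole peaks changed most sequence results. Against H3K27ac only and both marks, the odds ratios became 0.753 and 0.697 for TGACGTCA (now called), 1.01 and 1.16 for any variant (no longer called), and 0.795 and 0.819 for TGAGTCA (now called as less frequent). Against H3K27ac only they became 1.09 for strings and 1.03 for peaks with none, neither called. In the panel, ACAATGG (0.886) and TTGCNNAA (0.853) turned against H3K27ac only, and TTGCNNAA (0.723) and GGAATGT (0.785) against both marks. The marked peaks are wider and so offer more sequence.

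Against both marks, the TGAGTCA call was lost among the stronger 50% of the EA1 peaks (1.26), within GC quintiles (1.18) and among peaks of at most 700 bp (1.36), and the chromosome X call with the stronger marks (4.24), the stronger EA1 peaks (6.04), within GC quintiles (5.2) and among narrow peaks (3.05). Against H3K27ac only, the X call was lost among the stronger EA1 peaks (1.64) and that for peaks with none among narrow peaks (0.871). Intragenic position against both marks was 0.985 with the stronger marks. The cause was not tested. The 6-mer counts of 284 higher and 366 lower became 73 and 121 (stronger EA1 peaks), 106 and 158 (central 200 bp), 35 and 26 (GC deciles), and 389 and 460 (stronger marks). The 9 panel calls became 2 within GC quintiles, 4 in the central 200 bp, 4 among the stronger EA1 peaks, 9 among narrow peaks and 11 in whole peaks, where GGAAGGAA (0.636 and 0.611), GGAATGT (0.724 and 0.785), TTGCNNAA (0.853 and 0.723) and CCGGAAGT (0.36 against both marks) were newly called, ACAATGG, TTACNTAA and TGATGNAA lost their calls, and CAGCTG and CTCF kept theirs. CCGGAAGT was also called among narrow peaks (0.176 and 0.15). Fewer peaks or bases were searched in the stronger, narrow and 200-bp settings. The panel alternatives, the GC deciles, the other string definition and the width limit were chosen after seeing the data.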

Other observations

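RefSeq lists 1015 curated enhancers and 15 silencers on the mouse chromosomes. An enhancer was overlapped by 6 unmarked distal peaks (0.248%), by 11 peaks with H3K27ac only (0.401%) and by 19 with both marks (1.66%), and a silencer by 0 peaks of each class. The curated set is small and these overlaps were not tested.

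The numbers of unmarked peaks per megabase ran from 0.729 on chromosome 7 to 1.32 on chromosome 13 among the autosomes, and stood at 0.146 on chromosome X.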
